A study of Mus musculus with 6 samples.

Results

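Endothelial marker genes were represented by 9 genes, Kdr, Flt1, Tek, Tie1, Pecam1, Cdh5, Eng, Egfl7 and Vwf. Every probe set whose only annotated symbol was one of these was taken, which gave 17 of the 36701 probe sets on 3 mouse expression chips, with 11 on U74Av2, 2 on U74Bv2 and 4 on U74Cv2. Each chip was hybridised with 1 wild-type array and 1 null array, for 6 arrays in all. Per the labels the extracts were total RNA from spermatogonia, which are the dividing germ cells at the base of the seminiferous tubule. Both genotypes were 1 week old and on a mixed 129sv and C57Bl6 background, and the null mice carried a knockout of Zfp145, the zinc finger repressor PLZF, now named Zbtb16. Neither the isolation of the cells, the animals behind each extract, nor the deleted part of Zfp145 is given in the sources used here. Without replicates no difference has a replicate check, no p-value is given, and the number of arrays limits the precision.

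Endothelial cells line blood vessels, and in the testis the vessels run through the interstitium, outside the tubules that hold the spermatogonia. The vascular endothelial growth factors act through the tyrosine kinases encoded by Kdr and Flt1, and the angiopoietins act through the kinase encoded by Tek, with Tie1 as its related partner. Pecam1 and Cdh5 encode adhesion proteins of the junctions between endothelial cells. Eng encodes a co-receptor for ligands of the TGF-beta and BMP family, and Egfl7 and Vwf encode secreted proteins.

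The compared quantity is the log2 ratio of null over wild type within a chip, after 1 scaling factor per chip and a floor under low values, at intensities of 98.3 (U74Av2), 165.3 (U74Bv2) and 124.0 (U74Cv2). Where 1 array was under the floor the ratio is only a bound, and where both were there is no ratio. As a yardstick, the disagreement among probe sets that share a gene, called the spread, was computed for each chip and signal level. It ran from 0.16 to 0.35 on U74Av2, from 0.27 to 0.35 on U74Bv2 and from 0.32 to 0.56 on U74Cv2, on the log2 scale, and it does not cover differences between animals. Zbtb16 read 770.2 (wild type) and 158.1 (null) with 1 probe set on U74Av2, and 1156.8 and 510.8 on U74Cv2, with log2 ratios of -2.29 and -1.20. A further probe set on U74Av2 read 50.6 and 16.7, under the floor on both arrays. A probe set outside the deleted part would not check the genotype.

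Among the endothelial probe sets above the floor, none differed by 2-fold between the genotypes on any chip, although a dim Egfl7 probe set passed that size when the floor was lowered or removed. Of the 17 probe sets, 10 were above the floor on both arrays, 2 on 1 array and 5 on neither. The 10 measured ratios came from 8 genes and ran from -0.36 to 0.48, with 5 above 0, 5 below 0 and a median of 0.03 (0.16 without U74Cv2). At 2-fold the count was 0 of 8 probe sets above the floor on at least 1 array of U74Av2, where 0.908% of all such probe sets differed that much. It was 0 of 1 on U74Bv2 (1.82% of all) and 0 of 3 on U74Cv2 (11.2% of all). Counts of 0 among so few probe sets do not stand apart from these shares. In a bulk extract, fewer cells of a type and less RNA per cell cannot be told apart.

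**Figure D1:**
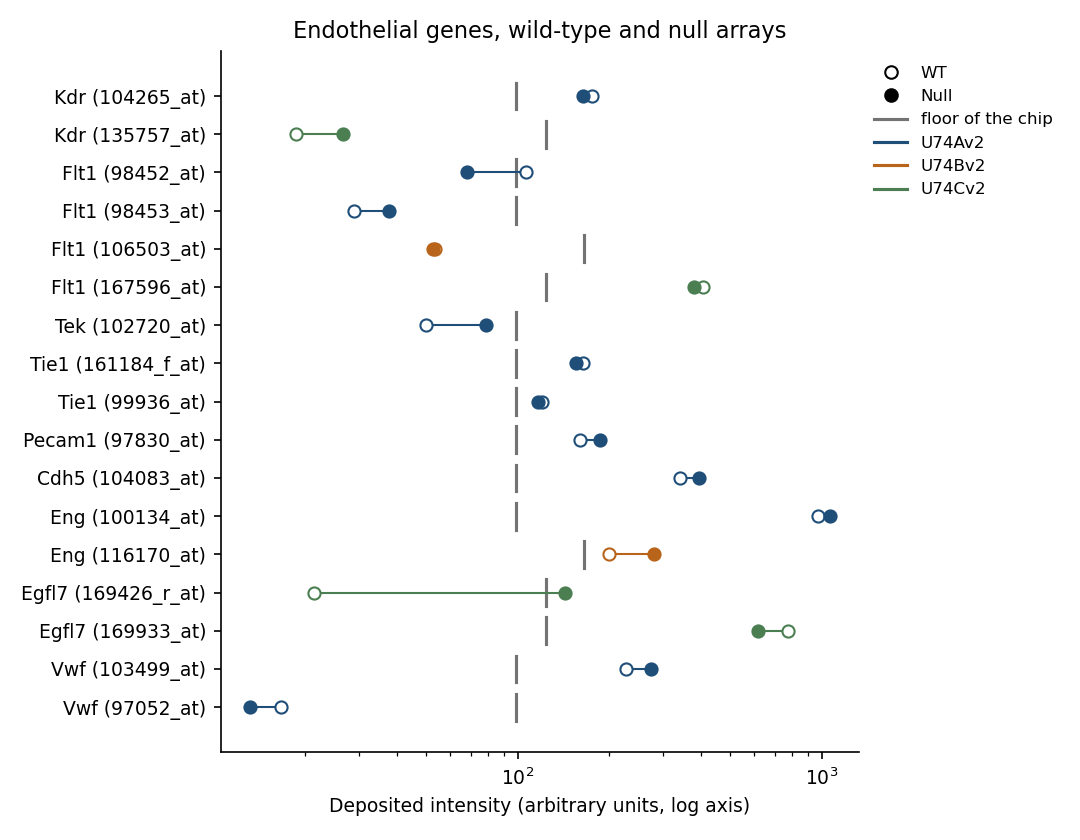
Deposited intensity, on a log axis, of the 17 probe sets of the 9 endothelial genes, with open circles for the wild-type array, filled circles for the null array and grey ticks for the chip's floor. Most pairs lie close together. The widest gap is that of Egfl7 probe set 169426_r_at, from 21.3 to 142.6, most of it under the floor of 124.0.

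Measured against the spread, 1 of the 10 probe sets lay further from 0 than its own spread, and none lay further than 2 spreads. Beyond 2 spreads, U74Av2 as a whole had 680 among its 7082 measured probe sets, U74Bv2 had 468 among 6915, and U74Cv2 had 550 among 6280. A count of 0 among only 10 probe sets does not stand apart from these shares. By chip the count beyond the spread was 0 of 7 on U74Av2, where 36.2% of all measured probe sets lay beyond it, 1 of 1 on U74Bv2 (33.3% of all) and 0 of 2 on U74Cv2 (33.1% of all). The median ratio of the 7 on U74Av2 was 0.12, beside -0.01 over all 7082 measured probe sets of that chip. On U74Cv2 the 2 measured ones had a median of -0.24, beside -0.00 over 6280.

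**Figure D2:**
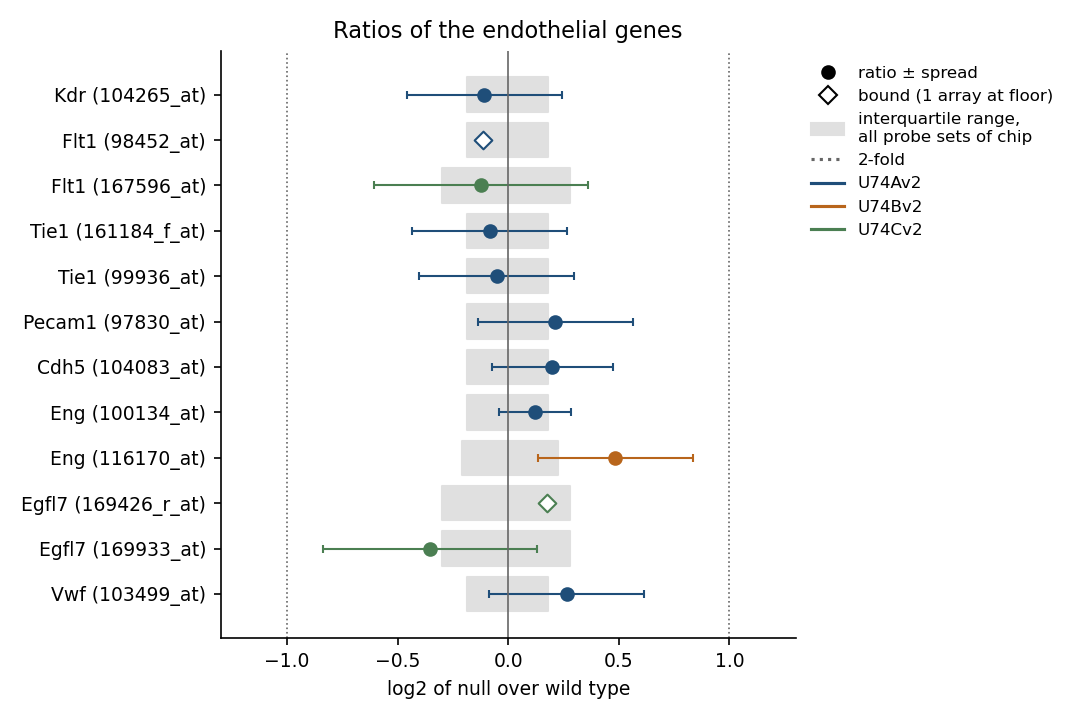
Log2 ratio of null over wild type for the 12 endothelial probe sets above the floor on at least 1 array. Filled circles are ratios with the spread as bars, open diamonds are bounds, and grey bands show the interquartile range of all measured probe sets of the chip. All ratios lie inside the dotted 2-fold lines, and the Eng probe set on U74Bv2, at 0.48, has the only bar that does not reach 0.

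The 2 probe sets of the vascular endothelial growth factor receptors above the floor on both arrays differed by less than their spread, and a Flt1 probe set gave only a bound. Kdr, the main signalling receptor of the pathway in endothelial cells, read 175.5 (wild type) and 163.8 (null) on U74Av2, a log2 ratio of -0.11 against a spread of 0.35. Its probe set on U74Cv2 read 18.6 and 26.5, both under the floor. Flt1 encodes a receptor that binds the growth factor tightly and is also made as a soluble decoy. It had 4 probe sets, of which 1, on U74Cv2, was above the floor on both arrays, at 407.6 (wild type) and 380.8 (null). That log2 ratio of -0.12 stood against a spread of 0.48. On U74Av2 Flt1 probe set 98452_at read 106.5 (wild type) and 68.1 (null), a bound of at least 1.08-fold lower, which became a log2 ratio of -0.65 when the floor was lowered to the 20th percentile of the chip. The remaining Flt1 probe sets read 28.8 and 37.7 on U74Av2 and 53.2 and 52.7 on U74Bv2, all under the floor. Both measured VEGF receptor ratios were slightly below 0 and lay inside the interquartile range of their chip.

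Of the TIE receptors, Tek gave no ratio. Its only probe set, on U74Av2, read 49.8 (wild type) and 78.7 (null), under the floor on both arrays, so a difference in Tek was not measurable here. Tie1, an orphan receptor that pairs with the Tek product, was above the floor with both of its probe sets on U74Av2. Probe set 161184_f_at read 163.5 and 155.3 in wild type and null, and 99936_at read 120.2 and 116.7. The log2 ratios of -0.08 and -0.05, each with a spread of 0.35, lay 0.03 apart. The name of the first carries a suffix that can mark probes shared between transcripts. These were the smallest ratios among the 10 measured, at the 24.2nd and 15.7th percentile of absolute size over all measured probe sets of the chip.

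The adhesion genes read slightly higher in the null array, within the spread. Cdh5, which encodes the cadherin of endothelial junctions, read 342.2 (wild type) and 395.4 (null) on U74Av2, a log2 ratio of 0.20 with a spread of 0.27. Pecam1 read 159.8 and 186.4 on the same chip, a log2 ratio of 0.21 with a spread of 0.35. Each gene rests on 1 probe set. Pecam1 protein is also found on platelets and leukocytes. Of the 9 probe sets for 7 platelet and megakaryocyte genes, 1 (Itga2b, on U74Cv2) was above the floor on both arrays. All 6 on U74Av2 were under the floor on both arrays. Their summed intensity of 204.8 (wild type) and 141.3 (null) therefore gives no measured difference. The leukocyte and macrophage list had 14 of 23 probe sets above the floor on both arrays. Of these, 12 had ratios below 0 and 2 above, with a median of -0.22. Over all measured probe sets, 49.25% (U74Av2) and 49.65% (U74Cv2) had ratios above 0. Of the 14, 5 lay beyond their spread, beside 36.2% (U74Av2) and 33.1% (U74Cv2) of all. The list's summed intensities on U74Av2, which include probe sets under the floor, were 9757.9 (wild type) and 8328.8 (null). Ptprc, the pan-leukocyte marker CD45, was under the floor with all of its probe sets. The part of these cells in the Pecam1 signal was not tested.

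Eng had the largest ratio among the 10 probe sets above the floor on both arrays. On U74Bv2 it read 199.7 (wild type) and 280.3 (null), a log2 ratio of 0.48, or 1.40-fold, against a spread of 0.35. Of all measured probe sets of that chip, 84.4% had a ratio of that absolute size or less. On U74Av2 the other Eng probe set read 973.6 and 1065.3, a log2 ratio of 0.12 against a spread of 0.16. Both probe sets thus read higher in the null array, and the one with the smaller spread gave the smaller ratio. They differed from each other by 0.36. The spread is scaled to a single ratio within a chip, so it does not size this gap between chips.

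The measured probe sets of the secreted proteins went different ways, each by less than its spread, and a further Egfl7 probe set gave only a bound. Egfl7, a vessel-tube factor made by endothelial cells, read 776.9 (wild type) and 617.2 (null) with probe set 169933_at on U74Cv2, a log2 ratio of -0.36 against a spread of 0.48. Its other probe set on that chip, 169426_r_at, read 21.3 and 142.6, so only the null array was above the floor of 124.0. That gives a bound of at least 1.13-fold higher, in the opposite direction, and its name carries a suffix that marks a less strict probe design. With a lower floor, at the 20th percentile, this bound became a log2 ratio of 1.66, and without a floor 2.72. Vwf, the von Willebrand factor of clotting, which megakaryocytes also make, read 227.2 and 274.7 with 1 probe set on U74Av2, a log2 ratio of 0.26 against a spread of 0.35. Its second probe set there read 16.6 and 13.1, under the floor on both arrays.

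The promoter sequences of 6 of the 9 genes were held in the RefSeq table of build GRCm38.p6, as 8 start sites. Of these, 5 hold AGGAAG, a core sequence bound by ETS factors, on either strand (CTTCCT on the other) within the 250 bases before the start, as do 29.5% of all 32851 start sites in the table. Egfl7 has several of these start sites, with 3, 1 and 0 matches, so the sites are not separate genes. The GATA sequence AGATAA and the forkhead sequence TAAACA were searched on both strands too. They are in none of the 8, against 10.0% and 12.0% of all. Those of Eng, Tie1 and Tek are shown because the results turn on these genes, Eng with the largest and Tie1 with the smallest ratio among the probe sets above the floor on both arrays, and Tek with no measurable level. Each line gives the 250 bases before the start site, 5′ to 3′ on the strand of the gene, with AGGAAG or CTTCCT in capitals.
Eng, chr2:32646345-32646594, plus strand: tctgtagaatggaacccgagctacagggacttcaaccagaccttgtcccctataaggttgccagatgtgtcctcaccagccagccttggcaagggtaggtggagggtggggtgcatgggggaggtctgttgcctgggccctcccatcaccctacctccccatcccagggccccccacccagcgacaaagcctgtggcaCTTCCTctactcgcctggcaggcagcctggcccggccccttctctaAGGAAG
Tie1, chr4:118489850-118490099, minus strand: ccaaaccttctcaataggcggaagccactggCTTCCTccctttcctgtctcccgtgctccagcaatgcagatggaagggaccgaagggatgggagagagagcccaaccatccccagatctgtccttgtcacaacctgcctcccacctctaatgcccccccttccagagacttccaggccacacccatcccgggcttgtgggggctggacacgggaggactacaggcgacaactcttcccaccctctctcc
Tek, chr4:94739039-94739288, plus strand: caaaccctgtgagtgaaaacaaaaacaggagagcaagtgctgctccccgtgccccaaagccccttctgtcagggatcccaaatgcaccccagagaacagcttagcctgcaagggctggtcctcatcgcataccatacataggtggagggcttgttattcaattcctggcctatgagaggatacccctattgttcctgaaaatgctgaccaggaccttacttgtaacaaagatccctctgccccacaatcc
The Eng window holds 2 matches, the Tie1 window 1 and the Tek window 0. A match is a description of the letters and not evidence of binding.

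The wider set of vascular genes also lay around 0. In 7 lists of ligands, receptors, junction, coagulation, transcription factor and Notch genes, 85 of 93 genes had 176 probe sets, of which 97 were above the floor on both arrays. Of these, 42 had ratios above 0 and 55 below, with a median of -0.05. At least 2-fold differences were found in 0 of 61 probe sets above the floor on at least 1 array of U74Av2 (0.908% of all), in 0 of 29 for U74Bv2 (1.82% of all) and in 2 of 21 for U74Cv2 (11.2% of all), shares near those of the whole chips. Both were lower in the null.

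Those 2 were ligands, and both were under the floor on the null array. Vegfa, the main ligand of Kdr and Flt1, read 327.1 (wild type) and 88.6 (null), at least 2.64-fold lower. Its probe sets on U74Av2 and U74Bv2 read 71.0 and 30.8, and 77.5 and 99.7, all under the floor. Angpt1, the activating ligand of the Tek receptor, read 272.5 and 36.6, at least 2.20-fold lower, and its probe set on U74Av2 read 42.4 and 55.5, under the floor. No other probe set of either gene was measured on both arrays, so neither bound has a second measurement.

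The remaining vascular lists held no 2-fold difference, and their brightest genes were as follows. Among TGF-beta and BMP receptor genes, 17 of 23 probe sets were measured with a median of -0.05. Bmpr2, a BMP receptor, stood at -0.27 on U74Av2, at -0.33 on U74Bv2 and at -0.55 on U74Cv2, and Tgfbr1, a TGF-beta receptor, at -0.01. Among junction and surface genes, 25 of 43 were measured with a median of -0.10. F11r, a junctional adhesion molecule, stood at -0.16, 0.12 and -0.20, and Ctnnd1, a catenin that binds cadherin tails, at -0.38 and -0.10. Among coagulation and vessel tone genes, 18 of 31 were measured with a median of 0.03. Plat, the tissue plasminogen activator, stood at -0.22 and 0.22, and Ece1, which processes endothelin, at -0.16 and 0.34. Among endothelial transcription factors, 23 of 41 were measured with a median of 0.06, Epas1, a hypoxia-inducible factor, at -0.44, and Lyl1, a basic helix-loop-helix factor, at -0.85, -0.02 and -0.11. Among Notch genes, 6 of 15 were measured with a median of -0.05, the receptor gene Notch1 at -0.03 and the ligand gene Jag2 at 0.52. Probe sets of the same gene went opposite ways for F11r, Plat and Ece1.

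**Figure D3:**
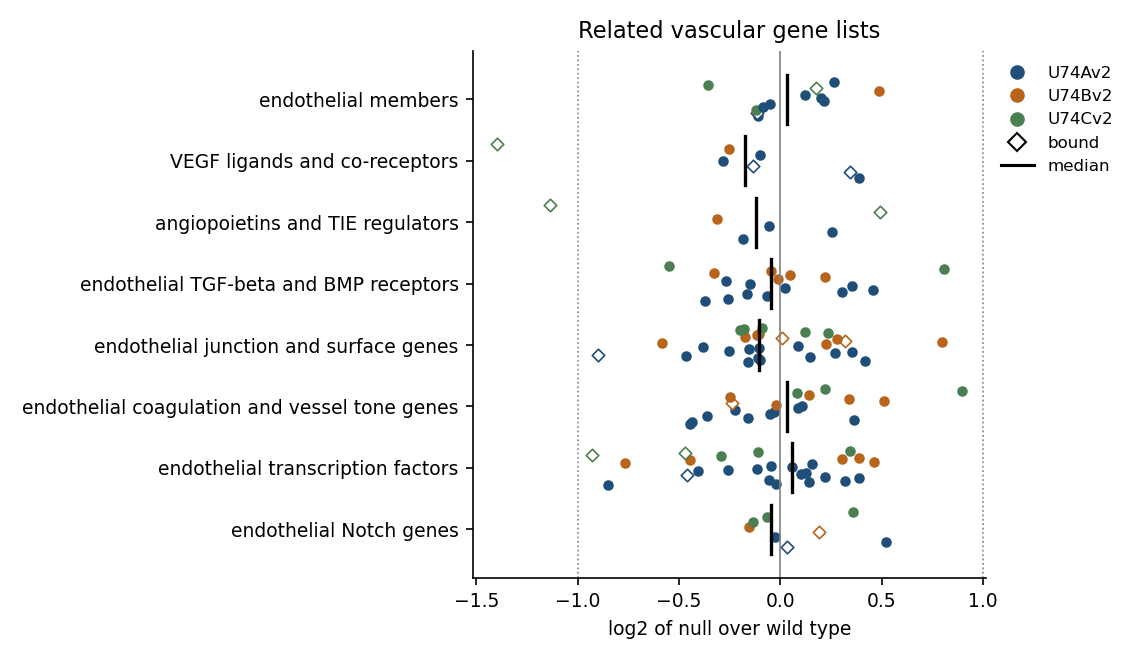
Log2 ratio of null over wild type for every probe set of the 9 endothelial genes and of 7 related vascular lists that was above the floor on at least 1 array, with the colour giving the chip, open diamonds bounds and black bars the median of the measured ones. The medians lie between -0.17 for the VEGF ligands and co-receptors and 0.06 for the transcription factors, and only the 2 ligand bounds pass the dotted 2-fold line.

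The cells around the vessels were read from the same arrays. Pericyte and mural cell genes had 4 of 14 probe sets above the floor on both arrays, with a median of 0.01, and lymphatic endothelial genes had 1 of 4, that of Pdpn at 0.36. Lists of other cell types had medians on either side of 0. Fibroblast and matrix genes, all on U74Av2, had 12 of 14 probe sets above the floor on both arrays, 9 of them with ratios above 0 and a median of 0.53, and the matrix gene Postn stood at 1.29. Germ cell genes had 12 of 14 with a median of 0.23 and ratios from -0.64 to 0.81. Their medians by chip were 0.56 on U74Av2, -0.22 on U74Bv2 and 0.13 on U74Cv2. Sertoli cell genes had 20 of 23 with a median of -0.14. On U74Av2 all 13 of their measured ratios were below 0, with the homeobox gene Rhox5 at -1.04. On U74Bv2 1 was above 0 and 1 below, and on U74Cv2 3 were above and 2 below. Dhh stood at -0.20 and -0.15 on U74Av2, and at 0.57 and 0.35 on U74Cv2. Leydig cell genes had 7 of 12 with a median of -0.17, with 5 below 0 but Hsd17b3 at 1.20. Smooth muscle and peritubular genes had 10 of 15 with a median of -0.13. Erythroid genes had 2 of 7, the globin gene Hba-a1 at -0.72 and Slc4a1 at -0.09. The part of these shifts in the endothelial ratios was not tested. Probe sets of 8 of the 9 endothelial genes were thus above the floor, beside those of germ cell and somatic genes, in RNA labelled as from spermatogonia. The floor is a percentile of each chip, so passing it is not a detection call. Which cells gave the endothelial signal was not tested.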

How the data were processed

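Each chip's table holds the intensity per probe set as the authors deposited it, linear and above 0 throughout. Per the values, the arrays had already been brought to a common scale when deposited, since the mean without the lowest and highest 2% was 500.1 to 500.3 on all 6 arrays. Which software and background correction produced them is not given in the sources used here, and no detection calls were used. Gene symbols came from GEO's platform annotation, in which 10855, 10603 and 7739 probe sets of U74Av2, U74Bv2 and U74Cv2 had 1 symbol. Entrez identifiers matched a RefSeq gene table (GRCm38.p6) for 10839, 10572 and 7699 of them. The arrays name no genome build.

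Control probe sets, 66 a chip, were left out. Null values were divided by the median null to wild-type ratio of the probe sets above the median of mean rank, a log2 shift of 0.01, 0.00 and 0.02. Values under the 40th percentile of both arrays were set to that floor before the log2 ratio was formed. The spread is the median absolute difference between probe sets of 1 gene on 1 chip, times 1.4826 and divided by the square root of 2, in 3 level classes. The scripts were tested on simulated data with large changes in bright probe sets, so the test does not cover small ratios of dim ones. The members, lists and thresholds were chosen with earlier results of these data known. All 9 members were named, and from each vascular list the genes at least 2-fold different or else the 2 brightest by signal percentile. Alternatives were the deposited scale, quantile normalization, loess, other floors, other thresholds and probe sets of plain design. The tools were Python 3.11.15, statsmodels 0.14.6, pandas 2.3.3, numpy 2.4.6 and matplotlib 3.10.9.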

Additional observations from a re-analysis of the deposited data

How the results depend on the processing

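The count of endothelial probe sets at least 2-fold different stayed at 0 on the deposited scale, under loess and quantile normalization, and at a threshold of 1.5-fold. It was also 0 with a floor raised to the 60th percentile, with plain-design probe sets alone and at a threshold of 3-fold. The same held without U74Cv2, a setting chosen after seeing the data. These last 4 settings could not have raised a count of 0, so they do not check it. The share of all probe sets at least 1.5-fold different was not computed, so the count at 1.5-fold has no share beside it. A floor lowered to the 20th percentile made the count 1 of 15, and no floor 1 of 17. In both cases it was the Egfl7 probe set 169426_r_at on U74Cv2, whose wild-type value lies under the floor used. In both settings the bound of Flt1 probe set 98452_at became a log2 ratio of -0.65, while Flt1 probe set 98453_at gave 0.38 and 106503_at -0.02, and Tek gave 0.65. Without a floor a Kdr probe set on U74Cv2 gave 0.49 and a Vwf probe set on U74Av2 -0.35, each opposite in sign to the measured probe set of its gene. Of the 10 measured ratios, 9 kept their sign in every setting that gave a value, while Tie1 probe set 99936_at ran from -0.05 to 0.05. The median over all chips ran from -0.0005 to 0.16. That of the VEGF ligands and co-receptors turned from -0.17 to 0.15 under the raised floor, where 2 probe sets were left. The U74Cv2 median of the endothelial genes turned from -0.24 to 0.18 without a floor. Medians near 0 turned sign too, that of the transcription factors in 4 of 8 settings (-0.05 to 0.08), of the coagulation genes in 3 of 8 (-0.05 to 0.11) and of the TGF-beta genes in 1 of 8 (-0.15 to 0.02). Kdr, Tie1, Pecam1 and the Eng probe set on U74Bv2 lie near the floor, so low signal over background limits their ratios. Under the raised floor these ratios and that of Vwf are lost. The 4 left were Cdh5 and Eng on U74Av2, and Flt1 and Egfl7 on U74Cv2. With 1 array a genotype no left-out replicate could be tried.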
